A study of Mus musculus with 6 samples.

Results

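The Wnt genes described here are 40 genes that act outside the receiving cell or at its surface: 18 Wnt ligands, the coreceptors, the proteins that load and release the ligands, the R-spondin agonists and the secreted antagonists. They were chosen by name, with earlier results of these data known. Of the 40, 36 have a row among the 17312 genes of the deposited table, whose unit is FPKM (a read level scaled by transcript length and library size). Wnt1, Wnt2, Rspo4 and Dkk1 have no row in the table and were not analysed here. The 36 were measured by bulk RNA sequencing in 6 mouse leg tumors. Of these, 3 arose in mice with a Cre-lox inducible allele of SS18-SSX1 and 3 in mice with such an allele of SS18-SSX2, the fusion oncogenes of human synovial sarcoma. In both groups TATCre, a purified Cre recombinase that enters cells, was injected into soft tissue in front of the tibia, no further treatment was given, and tumors were collected about 1 year later. Recombination was therefore limited by the place of injection and not by a cell type promoter, the labels give neither the age nor the sex of the mice, and no tumor-free tissue was part of the series.

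Wnt ligands are secreted lipid-modified glycoproteins. Porcn attaches the lipid, Wls carries the ligand to the cell surface, and the ligand then joins a Frizzled receptor to a coreceptor. Lrp5 and Lrp6 as coreceptors stabilize beta-catenin, while Ror1, Ror2 and Ryk serve beta-catenin independent signals, for which Wnt5a and Wnt11 are the best known ligands. R-spondins raise the number of receptors, Sfrp proteins, Frzb and Wif1 bind ligands outside the cell, Dkk1 and Dkk2 bind Lrp5 and Lrp6, and Notum removes the lipid. In human synovial sarcoma nuclear beta-catenin and autocrine Wnt signaling are well described, and the comparison asked here is which of these genes differ between tumors of the fusion genotypes.

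Depth, worked out from the steps between low FPKM values, was lowest in SS18-SSX2 tumor 2 with 7285800 reads and highest in SS18-SSX1 tumor 3 with 17546136 reads. At these depths 1 read in a transcript of 1 kb was worth 0.0570 to 0.137 FPKM. All 8 synovial sarcoma markers with a row were at 1 FPKM or more in every tumor. Skeletal muscle RNA was uneven: 20 fibre genes summed to 12473 and 5607 FPKM in tumor 2 of the SS18-SSX1 and the SS18-SSX2 genotype, against 126 to 547 FPKM in the other 4 tumors, where 16 to 18 of the 20 genes were at 1 FPKM or more. Mast cell RNA was high in SS18-SSX1 tumor 3, with 9 genes summing to 2537 FPKM against 14.02 to 107 FPKM elsewhere. The Y-linked gene Ddx3y stood at 28.2 to 35.2 FPKM with SS18-SSX1 and at 0 to 0.0148 FPKM with SS18-SSX2, so the genotype and the sex of the mice cannot be told apart in any value below. Whether each tumor came from its own mouse is not stated outright in the labels, and p-values therefore measure only the spread between these samples. In bulk RNA, fewer cells of a type and less RNA per cell cannot be told apart.

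The smallest p-values were those of 2 ligands, Wnt5a and Wnt3, whose levels were higher in all SS18-SSX2 tumors than in any SS18-SSX1 tumor, but no Wnt gene passed the test over all genes. By size, the antagonist Wif1 had a larger log2 fold change, and the low ligands Wnt9b and Wnt8b had larger ratios. Of the 36 genes, 30 had at least 1 FPKM in at least 3 tumors and were tested with limma on log2(FPKM + 1). None of the 30 was called at a Benjamini-Hochberg adjusted p of 0.05, where 0.0649% of the 13873 tested genes (9 genes) were called. At an unadjusted p under 0.05 there were 7 of the 30 (23.3%), against 4.97% of all tested genes. Of these, 5 were higher in SS18-SSX2 tumors, as were 3.26% of all tested genes, and 2 were lower, as were 1.71%. None of the 30 reached 1 FPKM in the tumors of 1 genotype alone. Wnt3 and Dkk2 did so in only 1 SS18-SSX1 tumor, so their SS18-SSX2 tumors sufficed for entry to the test. The count of genes at an unadjusted p under 0.05 was 3 without SS18-SSX1 tumor 1, 3 without SS18-SSX2 tumor 3, and between 5 and 9 under the other 16 settings. The 7 genes were Wnt5a, Wnt3, Wnt11, Sfrp4, Wif1, Wnt2b and Wnt7b. Among all 36 genes the genotypes did not overlap for 9 (25.0%), 7 higher and 2 lower in SS18-SSX2 tumors, against 9.21% of all genes in the table. With fewer tumors to separate, that count was 10 to 16 (27.8% to 44.4%) when any 1 tumor was left out, against 11.7% to 23.6% of all genes, and 18 of 36 without tumor 2 of both genotypes, against 36.3% of all genes. The median log2 fold change of the 30 was 0.20 (SS18-SSX2 minus SS18-SSX1), beside 0.01 over all tested genes. It was 0.48 without SS18-SSX1 tumor 2 and 0.54 without tumor 2 of both genotypes. The mean log2 value was higher in SS18-SSX2 tumors for 22 of the 30 and for 51.1% of all tested genes, and the mean FPKM for 19 of the 30 and for 49.0% of all tested genes.

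**Figure D1:**
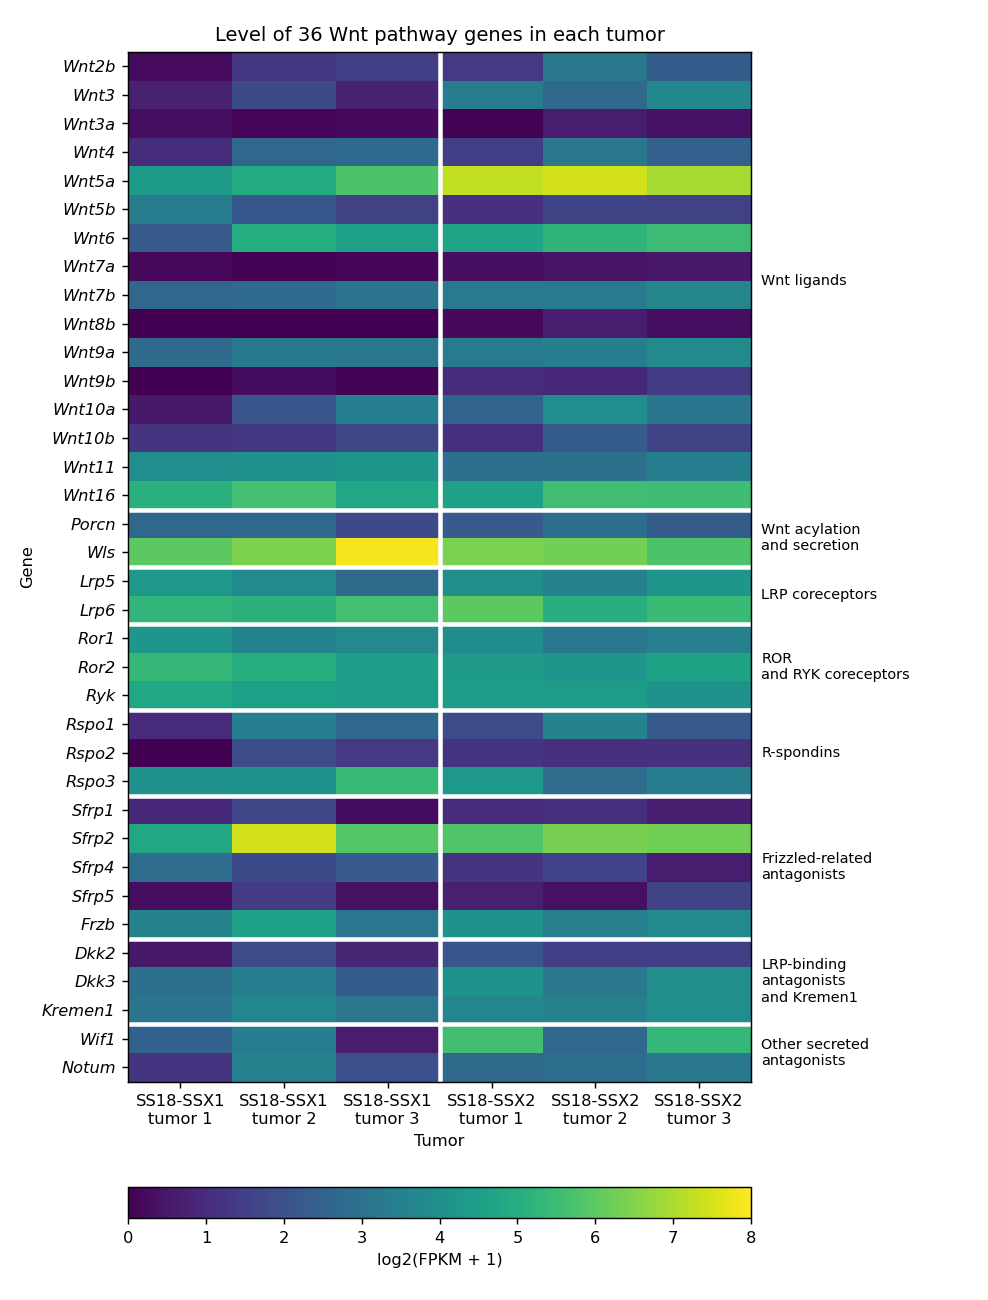
Level of the 36 Wnt genes with a row in the table, as log2(FPKM + 1), in each of the 6 tumors, with genes in rows by role and tumors in columns by genotype. Wnt5a is brighter in all SS18-SSX2 tumors, Wls is brightest in SS18-SSX1 tumor 3 and Sfrp2 in SS18-SSX1 tumor 2.

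Among the ligands, Wnt5a, a driver of planar cell polarity and limb outgrowth, had 19.6, 28.6 and 53.1 FPKM with SS18-SSX1, in tumors 1, 2 and 3. In SS18-SSX2 tumors 1, 2 and 3 it had 151, 175 and 123 FPKM. The lowest SS18-SSX2 tumor was thus well above the highest SS18-SSX1 tumor. Means were 33.7 ± 17.4 and 149.6 ± 25.97 FPKM (SD, n = 3 each), a 4.43-fold ratio, and the log2 fold change was 2.22 with SE 0.39 (limma adjusted p = 0.297). Over 18 other settings its adjusted p ranged from 0.0838 to 0.930, and without the muscle-rich tumor 2 of both genotypes the log2 fold change was 2.04. On GRCm38 Wnt5a (ENSMUSG00000021994) lies on chromosome 14 from 28504750 to 28527448. Its exons share 358 bases with those of the antisense gene Gm2670, whose mean was 0.646 FPKM. Fibroblast and tendon genes summed to 445, 3328 and 601 FPKM with SS18-SSX1 and to 1524, 1508 and 2269 FPKM with SS18-SSX2, with 8 to 10 of the 10 at 1 FPKM or more in each tumor and none at 0. The part of these cells in the Wnt5a difference was not tested.

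Wnt3, a ligand of beta-catenin signaling, had 0.659, 2.503 and 0.704 FPKM with SS18-SSX1, in tumors 1, 2 and 3 (27, 106 and 38 reads). In SS18-SSX2 tumors 1, 2 and 3 it had 9.58, 5.80 and 12.4 FPKM (428, 130 and 547 reads). All SS18-SSX2 tumors again lay above all SS18-SSX1 tumors, with the muscle-rich tumor 2 of each genotype closest to the other group. The means of 1.29 ± 1.05 and 9.25 ± 3.30 FPKM (SD, n = 3 each) stood in a 7.18-fold ratio, with a log2 fold change of 2.20 and SE 0.41 (limma adjusted p = 0.353, range over settings 0.0698 to 1.00). Wnt9b, the neighbour of Wnt3 on chromosome 11, was too low to be tested, with 0.0166, 0.209 and 0.0378 FPKM for SS18-SSX1 and 0.929, 0.881 and 1.66 FPKM for SS18-SSX2. These values rest on 1, 13 and 3 reads against 61, 29 and 108 reads, and again the genotypes did not overlap. When all genes in the table were fitted with no filter, the log2 fold change of Wnt9b was 0.97 (SE 0.21, limma adjusted p = 0.570).

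Wnt9b and Wnt3 point away from each other with 24.3 kb between them. The bases before their start sites are shown because these neighbours had the same order of genotypes, and those of Wnt11 because its order was the opposite. The sequences are RefSeq's, on GRCm38.p6, each 250 bases that end at the base before the start site, 5′ to 3′ on the strand of the gene, with CpG dinucleotides in capitals.
Wnt3, chr11:103773925-103774174, plus strand: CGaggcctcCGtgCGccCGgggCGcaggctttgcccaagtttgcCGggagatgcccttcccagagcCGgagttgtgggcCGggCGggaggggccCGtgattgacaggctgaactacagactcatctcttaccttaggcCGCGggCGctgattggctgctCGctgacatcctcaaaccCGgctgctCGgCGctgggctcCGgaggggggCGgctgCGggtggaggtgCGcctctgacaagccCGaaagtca
Wnt9b, chr11:103749822-103750071, minus strand: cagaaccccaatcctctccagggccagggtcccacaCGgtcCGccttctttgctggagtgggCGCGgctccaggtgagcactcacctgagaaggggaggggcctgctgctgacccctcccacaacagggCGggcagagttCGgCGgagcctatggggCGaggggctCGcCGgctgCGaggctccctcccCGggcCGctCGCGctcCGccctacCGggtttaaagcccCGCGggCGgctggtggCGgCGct
Wnt11, chr7:98834862-98835111, plus strand: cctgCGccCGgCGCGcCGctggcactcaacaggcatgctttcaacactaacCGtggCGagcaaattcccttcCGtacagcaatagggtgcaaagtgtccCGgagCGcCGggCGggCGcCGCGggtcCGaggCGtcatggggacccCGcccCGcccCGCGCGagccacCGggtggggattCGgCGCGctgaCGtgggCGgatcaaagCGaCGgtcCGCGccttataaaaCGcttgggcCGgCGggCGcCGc
These windows hold 22, 22 and 37 CpG dinucleotides. RefSeq promoters of 300 bases (250 before to 50 after a start site) were found for 23 of the 36 genes, and Wnt5a was not among them. The 26 promoters of these 23 genes held a median of 24.5 CpG dinucleotides, from 4 to 58, and 16 of the 26 held more than 20, the upper quartile of all 32851 promoters, whose median was 7. The TCF/LEF core motif CTTTGA (searched on both strands, as CTTTGA or TCAAAG, with no overlap between the forms) was in 4 of the 26 promoters (15.4%) and in 16.0% of all promoters. The matches were in promoters of Frzb, Ror1, Wnt5b and Wnt11, the last beginning 50 bases before the start site.

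Wnt11, the other widely studied beta-catenin independent ligand, showed the reverse order. SS18-SSX1 tumors 1, 2 and 3 had 14.1, 15.6 and 17.4 FPKM, and SS18-SSX2 tumors 1, 2 and 3 had 6.46, 6.76 and 9.89 FPKM. The groups did not overlap and each was narrow, with means of 15.7 ± 1.65 and 7.70 ± 1.90 FPKM (SD, n = 3 each). The log2 fold change was -0.96 with SE 0.26 (limma adjusted p = 0.602, range over settings 0.349 to 1.00). Within a tumor the level of Wnt5a was 1.39, 1.83 and 3.05 times that of Wnt11 with SS18-SSX1 and 23.4, 25.8 and 12.4 times with SS18-SSX2, a ratio chosen after the values were seen.

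**Figure D2:**
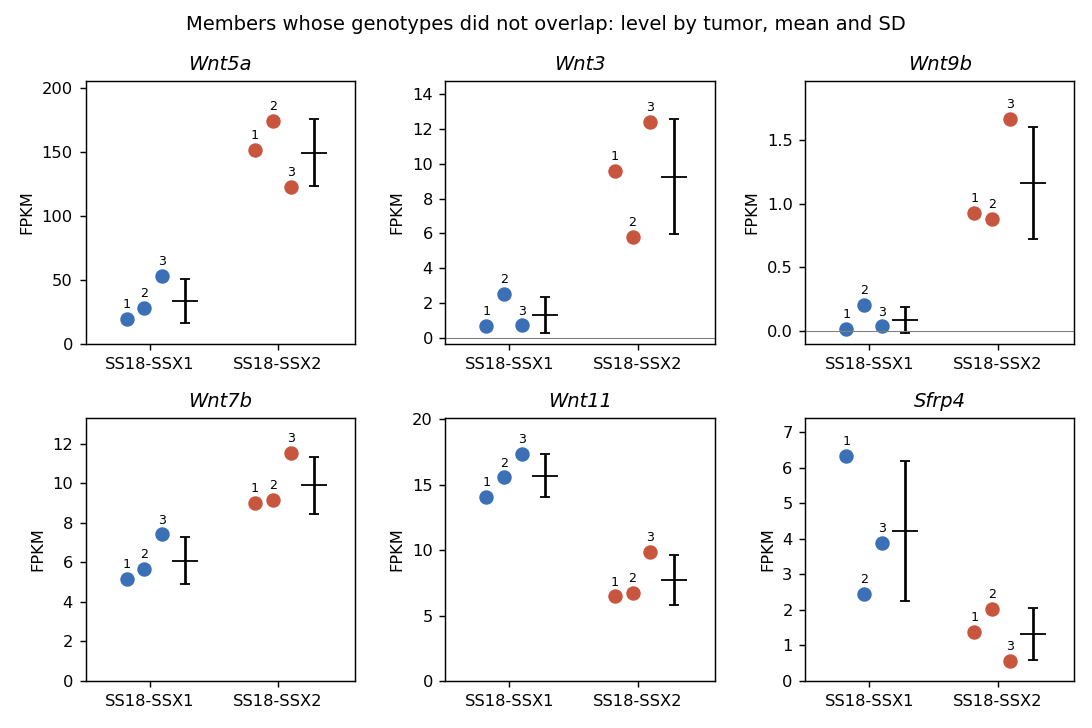
FPKM by tumor (numbered points) for 6 of the 9 Wnt genes whose genotypes did not overlap, with SS18-SSX1 in blue, SS18-SSX2 in red, and black marks for the mean ± SD of 3 tumors. Wnt5a, Wnt3, Wnt9b and Wnt7b lie higher in SS18-SSX2 tumors, and Wnt11 and Sfrp4 lie lower.

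A further 4 ligands had no overlap between genotypes. Wnt7b, which acts on beta-catenin in lung and vessels, had 5.17, 5.65 and 7.41 FPKM with SS18-SSX1 and 8.999, 9.14 and 11.6 FPKM with SS18-SSX2 (log2 fold change 0.63, SE 0.26, limma adjusted p = 0.990). Its exons share 324 bases with those of the antisense gene AU022754, whose mean was 0.878 FPKM. Wnt9a, a ligand of joint formation, had 5.87, 8.31 and 8.11 FPKM against 8.87, 9.57 and 12.95 FPKM (log2 fold change 0.44, SE 0.27, limma adjusted p = 0.997). For Wnt9a the gap between the groups, from 8.31 to 8.87 FPKM, was smaller than the SD of either (1.36 and 2.18 FPKM, n = 3 each). Wnt7a, at 0.0229 to 0.118 FPKM with SS18-SSX1 and 0.260 to 0.417 FPKM with SS18-SSX2, was too low to be tested and rests on 12 reads against 39. Wnt8b, a ligand of the embryonic forebrain, had 0 reads in every tumor with SS18-SSX1 and 7, 15 and 11 reads in those with SS18-SSX2, at the smallest transcript length that gives whole reads. It was at least 13.6-fold higher with SS18-SSX2, taking 3 reads in the whole SS18-SSX1 group as the floor, which covers counting error only.

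Wnt2b, Wnt10a and Wnt6 had higher means with SS18-SSX2 but overlapped. Wnt2b, known from limb and lung buds, had 0.189, 1.40 and 1.79 FPKM with SS18-SSX1 and 1.56, 8.26 and 4.13 FPKM with SS18-SSX2 (log2 fold change 1.31, SE 0.54, limma adjusted p = 0.984). Wnt10a, a ligand of skin and tooth development, had 0.456, 3.33 and 9.84 FPKM and 4.99, 14.2 and 7.59 FPKM (log2 fold change 1.17, SE 0.71, limma adjusted p = 0.997). Wnt6, which lies 6.19 kb from Wnt10a on chromosome 1 in the same orientation, had 3.78, 29.9 and 21.9 FPKM and 24.8, 36.04 and 43.6 FPKM (log2 fold change 1.22, SE 0.66, limma adjusted p = 0.997). All 3 ligands were lowest in SS18-SSX1 tumor 1, and 1 SS18-SSX1 tumor reached into the range of the other genotype for each, tumor 3 for Wnt2b and Wnt10a and tumor 2 for Wnt6. The log2 fold change of Wnt10a was 0.43 without SS18-SSX1 tumor 1 and 1.88 without SS18-SSX1 tumor 3, and that of Wnt2b was 0.86 without SS18-SSX2 tumor 2.

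Wnt16, a ligand of bone and joint, was the second most abundant ligand and had no detectable difference. It stood at 33.4, 47.8 and 26.2 FPKM with SS18-SSX1 and at 23.0, 46.1 and 44.95 FPKM with SS18-SSX2, a log2 fold change of 0.06 with a 95% interval of -0.77 to 0.89 (limma adjusted p = 0.997). Both genotypes covered nearly the same range, although the interval leaves room for a change in either direction. Wnt4 ranged from 1.07 to 8.05 FPKM, Wnt10b from 1.15 to 4.06 FPKM and Wnt5b from 1.09 to 9.48 FPKM, with the highest Wnt5b level in SS18-SSX1 tumor 1. Wnt3a, the gene next to Wnt9a at 16.2 kb, had 0.0249 to 0.547 FPKM and at most 12 reads in any tumor.

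Summed over the 16 ligands with a row, the level was 95.4, 154 and 157 FPKM for SS18-SSX1 and 245, 327 and 281 FPKM for SS18-SSX2. Much of this gap was Wnt5a: without it the sums were 75.8, 125 and 104 FPKM against 93.6, 153 and 158 FPKM, and the genotypes overlapped. Wnt5a made up 20.5%, 18.6% and 33.9% of the ligand sum with SS18-SSX1 and 61.8%, 53.4% and 43.7% with SS18-SSX2. Wnt16 was the leading ligand in SS18-SSX1 tumors 1 and 2, with 35.0% and 31.1%, and Wnt5a led in the other 4 tumors. From 9 to 13 ligands were at 1 FPKM or more in a tumor.

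**Figure D3:**
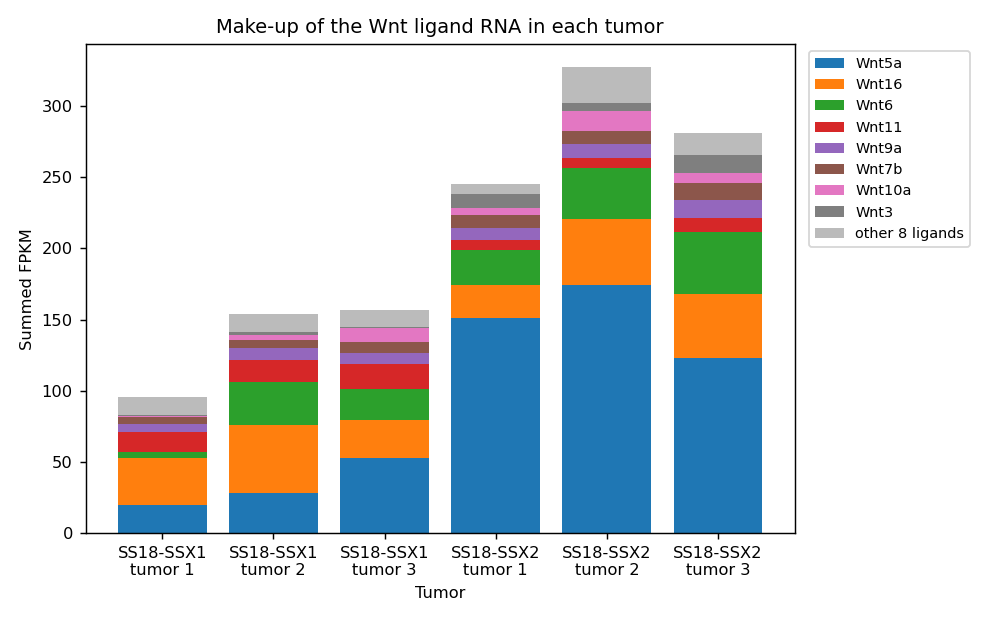
Stacked FPKM of the Wnt ligands in each tumor, with 8 ligands in colour and the other 8 joined in light grey. The Wnt5a block runs from 19.6 to 53.1 FPKM in SS18-SSX1 tumors and from 123 to 175 FPKM in SS18-SSX2 tumors, while the Wnt16 block has a similar size in both.

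The machinery of ligand release showed no order by genotype. Wls, the carrier of Wnt ligands, had 62.3, 85.6 and 229 FPKM with SS18-SSX1 and 83.3, 78.3 and 53.1 FPKM with SS18-SSX2 (log2 fold change -0.60, SE 0.49, limma adjusted p = 0.997). The level of 229 FPKM belonged to SS18-SSX1 tumor 3, and the other 5 tumors lay together. Without that tumor the log2 fold change of Wls was -0.055, and without SS18-SSX1 tumor 1 it was -0.99. That tumor also had the mast cell RNA given above, and the part of mast cells in its Wls level was not tested. Porcn, the acyltransferase, was lowest in the same tumor at 2.43 FPKM and ranged from 3.92 to 6.45 FPKM in the others (log2 fold change 0.12, SE 0.36, limma adjusted p = 0.997). Wls was thus 91.9% to 98.95% of the sum of both genes.

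The coreceptors spanned ranges, from the lowest to the highest of the 6 tumors, between 1.65-fold for Ryk and 3.13-fold for Lrp5. Lrp6 had 37.2, 34.0 and 48.3 FPKM with SS18-SSX1 and 62.7, 31.7 and 43.3 FPKM with SS18-SSX2, a log2 fold change of 0.16 with a 95% interval of -0.57 to 0.89 (limma adjusted p = 0.997). Lrp5 had 18.2, 13.2 and 5.81 FPKM against 14.3, 10.6 and 17.6 FPKM (log2 fold change 0.28, SE 0.41, limma adjusted p = 0.997), and Lrp6 was above Lrp5 in every tumor. Ror2, a receptor tyrosine kinase that binds Wnt5a, had 39.6, 32.0 and 21.1 FPKM with SS18-SSX1 and 18.8, 17.5 and 24.1 FPKM with SS18-SSX2 (log2 fold change -0.56, SE 0.30, limma adjusted p = 0.997). One tumor of each genotype crossed into the other range, and the log2 fold change was -0.37 without SS18-SSX1 tumor 1. Ryk had 20.5 to 27.0 FPKM with SS18-SSX1 and 16.4 to 21.5 FPKM with SS18-SSX2. Ror1 had 11.2 to 16.9 FPKM and 7.93 to 13.9 FPKM. All 3 of these receptors had lower means with SS18-SSX2 while Wnt5a had a higher one. The level of Wnt5a was 0.495, 0.892 and 2.51 times that of Ror2 with SS18-SSX1 and 8.06, 9.95 and 5.09 times with SS18-SSX2. This ratio too was chosen after the values were seen, and it largely restates the Wnt5a difference.

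R-spondin RNA was mostly Rspo3. This agonist of Lgr receptors had 15.6, 16.0 and 41.6 FPKM with SS18-SSX1 and 18.1, 6.25 and 9.69 FPKM with SS18-SSX2 (log2 fold change -1.01, SE 0.48, limma adjusted p = 0.997). SS18-SSX1 tumor 3, the tumor with the high Wls and mast cell levels, again stood above the rest, and without it the log2 fold change of Rspo3 was -0.56. Rspo1 had 0.969, 10.04 and 5.38 FPKM against 2.59, 10.7 and 3.85 FPKM (log2 fold change 0.18, limma adjusted p = 0.997), with its highest level in the muscle-rich tumor 2 of each genotype. Rspo1 made up 59.1% of R-spondin FPKM in SS18-SSX2 tumor 2 and 35.1% in SS18-SSX1 tumor 2, against 5.85% to 26.1% elsewhere, and the part of muscle tissue in this was not tested. Rspo2 was at 0 in SS18-SSX1 tumor 1 and at 1.16 to 2.58 FPKM in the other 5.

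Sfrp2 was the leading antagonist of the Frizzled-related group, at 59.1% to 85.8% of its sum. It had 26.5, 175 and 57.8 FPKM with SS18-SSX1 and 55.7, 80.3 and 77.0 FPKM with SS18-SSX2. The lowest and the highest level were both SS18-SSX1 tumors, so the mean of the log2 values was higher with SS18-SSX2 (log2 fold change 0.11, 95% interval -1.31 to 1.54, limma adjusted p = 0.997) while the mean FPKM was lower (86.3 ± 78.1 and 71.0 ± 13.3, SD, n = 3 each). The tumor with 175 FPKM had the highest muscle and fibroblast sums of the series, and their part in this level was not tested. The exons of Sfrp2 share 347 bases with those of the antisense gene Gm26771, whose mean was 0.905 FPKM. Sfrp4 was lower with SS18-SSX2 in all tumors, at 6.33, 2.44 and 3.89 FPKM against 1.37, 2.03 and 0.555 FPKM (log2 fold change -1.15, SE 0.40, limma adjusted p = 0.835, range over settings 0.285 to 1.00). Its groups did not overlap, although SS18-SSX1 tumor 2 and SS18-SSX2 tumor 2 came close. Frzb, an antagonist of cartilage, had 11.0, 22.4 and 7.73 FPKM and 16.1, 10.2 and 13.1 FPKM (log2 fold change 0.05, limma adjusted p = 0.997), and Sfrp1 and Sfrp5 stayed at or under 2.28 FPKM.

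Wif1, a secreted inhibitor that binds Wnt ligands, had the largest SD over the 6 tumors of all 36 genes on the log2 scale, and the split was by tumor within a genotype. SS18-SSX1 tumors 1, 2 and 3 had 4.58, 9.31 and 0.540 FPKM, and SS18-SSX2 tumors 1, 2 and 3 had 46.4, 5.49 and 39.3 FPKM. SS18-SSX2 tumors 1 and 3 stood far above the other 4, and the muscle-rich SS18-SSX2 tumor 2 lay within the SS18-SSX1 range. The log2 fold change was 2.38 with SE 0.91 (limma adjusted p = 0.899) and 3.90 without tumor 2 of both genotypes (adjusted p = 0.106). Notum, the lipid-removing hydrolase and a target of beta-catenin, had 1.28, 10.3 and 2.89 FPKM and 5.74, 6.38 and 8.30 FPKM (log2 fold change 0.74, SE 0.55, limma adjusted p = 0.997), with both the lowest and the highest level in SS18-SSX1 tumors. Its log2 fold change was 0.22 when SS18-SSX1 tumor 1 was left out, 1.38 when tumor 2 of that genotype was, and 1.41 when tumor 2 of both genotypes was. Its exons share 708 bases with those of the antisense gene Notumos, whose mean was 0.106 FPKM.

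**Figure D4:**
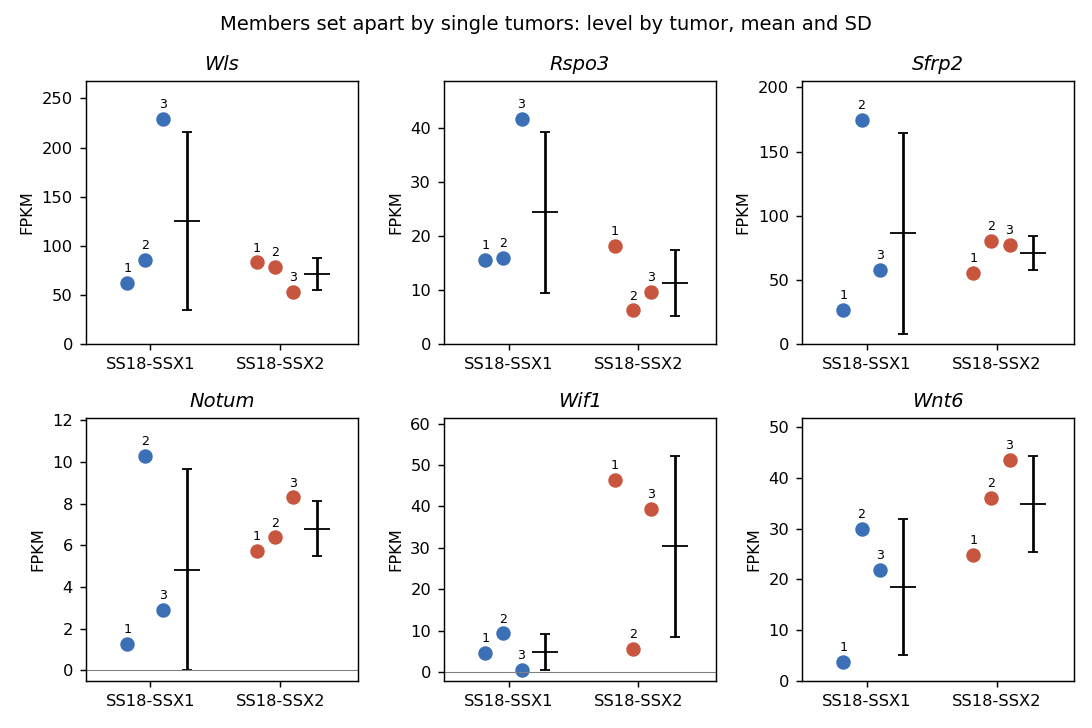
FPKM by tumor (numbered points) for 6 Wnt genes in which single tumors stood apart, with SS18-SSX1 in blue, SS18-SSX2 in red, and black marks for the mean ± SD of 3 tumors. SS18-SSX1 tumor 3 is highest for Wls and Rspo3, SS18-SSX1 tumor 2 for Sfrp2 and Notum, SS18-SSX2 tumors 1 and 3 for Wif1, and SS18-SSX1 tumor 1 is lowest for Wnt6.

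Of the Dickkopf proteins and their receptor, Dkk3, a divergent member of the Dickkopf family, had 6.73, 10.04 and 4.06 FPKM with SS18-SSX1 and 16.1, 8.26 and 14.5 FPKM with SS18-SSX2 (log2 fold change 0.84, SE 0.38, limma adjusted p = 0.997). The high pair was again SS18-SSX2 tumors 1 and 3, and the log2 fold change of Dkk3 was 0.55 without SS18-SSX1 tumor 3 and 1.38 without tumor 2 of both genotypes. Kremen1, a receptor for Dkk proteins, had 7.43, 11.9 and 8.02 FPKM and 11.6, 10.5 and 14.3 FPKM (log2 fold change 0.39, 95% interval -0.25 to 1.03, limma adjusted p = 0.997). Dkk2 ranged from 0.427 to 3.32 FPKM, lowest in SS18-SSX1 tumor 1 and highest in tumor 1 of the other genotype.

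SS18-SSX1 tumor 1 alone held the lowest level of 16 of the 36 genes (44.4%), where it alone held the lowest level of 16.8% of all genes in the table. Ligands, agonists and antagonists were among them. The tumor also had the lowest fibroblast and tendon sum, 445 FPKM. Its sums of macrophage, Schwann cell, B and plasma cell, and keratinocyte genes were the lowest too. Those of skeletal muscle, mast cell, endothelial, pericyte, adipocyte and cartilage genes were not. By mean log2 value, however, the cartilage genes were lowest in this tumor, at 2.27. Its synovial sarcoma markers had the highest sum of all tumors, 389 FPKM against 219 to 323 FPKM elsewhere. The part of any cell type in the low levels was not tested. SS18-SSX1 tumor 2 held the lowest level of 2.78%, against 18.5% of all genes. The highest levels ran from 3 of 36 in SS18-SSX1 tumor 3 (8.33%, against 22.8% of all genes) to 9 in SS18-SSX2 tumor 2 (25.0%, against 18.3%). For SS18-SSX2 tumor 3 the shares were 22.2% and 12.9%. SS18-SSX1 tumor 1 was nonetheless the highest of all tumors for 6 genes (16.7%, against 20.4% of all genes): Wnt5b, Sfrp4, Lrp5, Ror1, Ror2 and Ryk. This count over tumors was made after the values were seen.

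**Figure D5:**
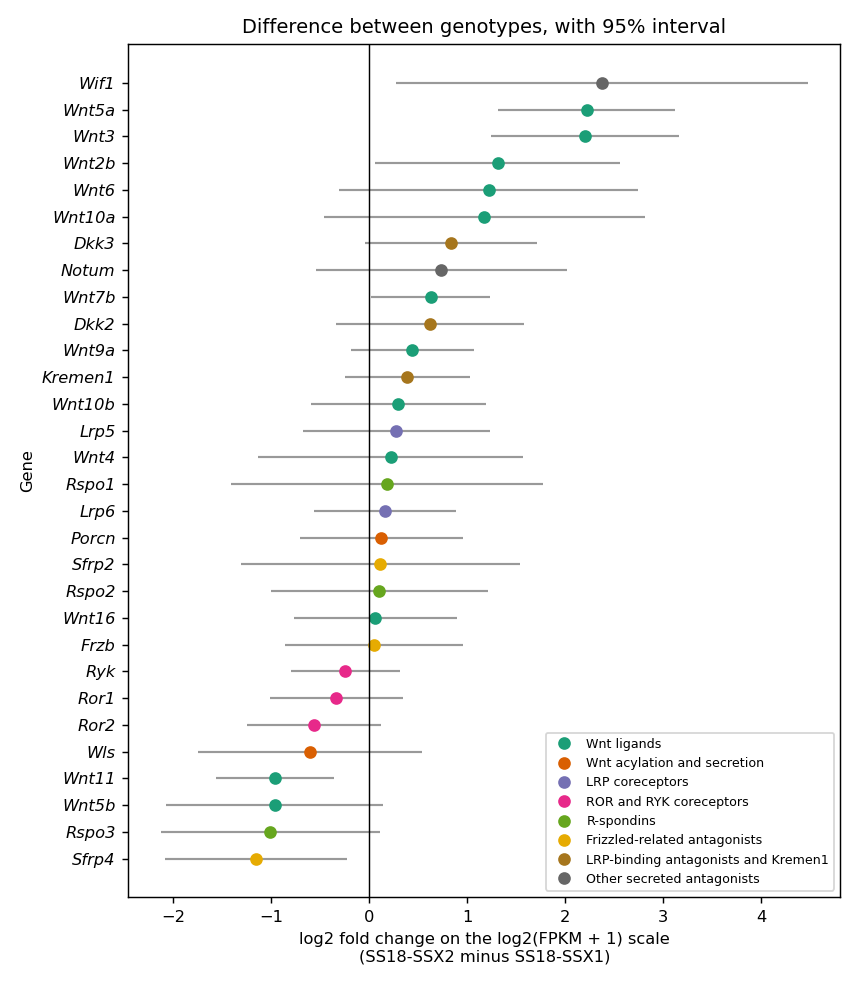
Log2 fold change of the 30 tested Wnt genes on the log2(FPKM + 1) scale, SS18-SSX2 minus SS18-SSX1, as points coloured by role with 95% intervals from limma before adjustment for multiple tests. The intervals of Wnt5a, from 1.32 to 3.12, and Wnt3, from 1.25 to 3.15, lie farthest from 0, and those of Wif1, Wnt2b, Wnt7b, Wnt11 and Sfrp4 also exclude 0.

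The other genes of the pathway, in 6 lists, had no called gene either, under the same test. The 10 Frizzled receptors, all tested, had 8 higher and 2 lower mean log2 values with SS18-SSX2 (7 higher by mean FPKM), where 51.1% of all tested genes were higher, and a median log2 fold change of 0.31. An unadjusted p under 0.05 was found for 3 of them, Fzd1, Fzd4 and Fzd5, against 4.97% of all tested genes. Fzd1, the most abundant, had 153 ± 34.1 and 303 ± 71.3 FPKM (SD, n = 3 each, limma adjusted p = 0.936), and Fzd4, which also binds Norrin in vessels, had 57.5, 11.6 and 37.0 FPKM against 8.72, 11.5 and 4.90 FPKM (adjusted p = 0.790). Of the Lgr and Rnf43 Znrf3 list, which holds the R-spondin receptors and the ligases they restrain, 3 of 5 had an unadjusted p under 0.05, against 4.97% of all tested genes, with Rnf43 and Lgr6 higher and Lgr4 lower in SS18-SSX2 tumors. In that list Rnf43 had 0.847, 1.11 and 0.521 FPKM with SS18-SSX1 and 2.52, 2.95 and 2.84 FPKM with SS18-SSX2 (log2 fold change 1.06, SE 0.29, limma adjusted p = 0.602), with no overlap. Of the SS18-SSX1 tumors only tumor 2 reached 1 FPKM for Rnf43, so its SS18-SSX2 tumors sufficed for entry to the test. Lgr6 had 21.4 ± 3.49 and 43.4 ± 18.02 FPKM (SD, n = 3 each, limma adjusted p = 0.952). Lgr4 had 28.01, 19.8 and 15.3 FPKM against 16.5, 6.998 and 9.93 FPKM, with overlap (log2 fold change -0.90, SE 0.36, limma adjusted p = 0.952).

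Feedback targets of beta-catenin had 13 of 14 tested genes with a higher mean log2 value in SS18-SSX2 tumors, 11 of 14 by mean FPKM, and a median log2 fold change of 0.77, beside 51.1%, 49.0% and 0.01 for all tested genes. Of the 15 listed genes, 3 are also among the Wnt genes above. An unadjusted p under 0.05 was found for 4, against 4.97% of all tested genes: Axin2, Apcdd1, Rnf43, which is also in the preceding list, and Wif1, already counted among the Wnt genes. As given above, the SS18-SSX2 tumors sufficed for entry of Rnf43 to the test. Axin2, the classical target, had 14.8, 37.9 and 25.3 FPKM with SS18-SSX1 and 43.4, 56.6 and 62.5 FPKM with SS18-SSX2, without overlap (log2 fold change 1.11, SE 0.36, limma adjusted p = 0.803). Apcdd1, a membrane inhibitor of Wnt signals, had 68.5 ± 25.6 and 136 ± 17.5 FPKM (SD, n = 3 each, limma adjusted p = 0.803). Ccnd1, cyclin D1, had 122 ± 35.8 and 120.2 ± 18.2 FPKM. Among 20 genes of the intracellular pathway none had an unadjusted p under 0.05, 14 means were higher and 6 lower on either scale, and the median was 0.14. Ctnnb1, beta-catenin itself, had 193 ± 17.7 and 216 ± 32.3 FPKM (SD, n = 3 each, limma adjusted p = 0.997).

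In the planar cell polarity list, with 13 of 14 genes tested, 9 mean log2 values were higher and 4 lower with SS18-SSX2 (7 higher by mean FPKM), where 51.1% of all tested genes were higher, and the median log2 fold change was 0.13. An unadjusted p under 0.05 was found for 2 of the 13, Celsr1 and Daam2, against 4.97% of all tested genes. Celsr1, a cadherin of the polarity complex, had 1.84, 1.45 and 1.496 FPKM with SS18-SSX1 and 7.13, 4.46 and 8.92 FPKM with SS18-SSX2 (log2 fold change 1.55, SE 0.31, limma adjusted p = 0.413), with no overlap. Daam2, a formin that links Dishevelled to actin, had 15.2, 17.6 and 10.2 FPKM against 7.34, 4.61 and 8.95 FPKM (log2 fold change -0.95, SE 0.32, limma adjusted p = 0.810). Of the other extracellular modulators, Sostdc1, an antagonist of BMP and Wnt ligands, had 0.214, 1.203 and 0.781 FPKM against 8.21, 2.27 and 8.47 FPKM (log2 fold change 1.97, SE 0.48, limma adjusted p = 0.564). Of the SS18-SSX1 tumors only tumor 2 reached 1 FPKM for Sostdc1, so its SS18-SSX2 tumors sufficed for entry to the test. The lowest SS18-SSX2 level of Sostdc1, like that of Wif1, was in the muscle-rich tumor 2. That list had 13 of 18 genes tested, with 9 mean log2 values higher and 4 lower (7 higher by mean FPKM) and a median of 0.20. Of the 13, 3 had an unadjusted p under 0.05, against 4.97% of all tested genes. They were Sostdc1, Draxin and Apcdd1, and the last is also among the feedback targets above.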

How the data were processed

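RNA from 6 tumors was sequenced from Ribo-Zero libraries, per the labels' protocols, and the authors deposited 1 table of FPKM values with a column per tumor. Per the submitters' processing notes the tool was Novoalign 2.08.03 and the build mm10. Not given in the sources used here are the counting step, its gene models and its use of strand, without which reads of antisense partners cannot be told apart. Columns were matched to tumors by the sample descriptions. Symbols came from GENCODE mouse release 21 (GRCm38) for 17029 of 17312 genes.

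Library totals were set where FPKM times exon length of genes with 1 exon gave whole reads (within 0.02 reads for 77.2% to 78.8% of low values). Genes with at least 1 FPKM in at least 3 tumors were tested with limma 3.58.1 in R 4.3.3 on log2(FPKM + 1), eBayes with a trend, two-sided, adjusted over 13873 genes. Fold changes are on that scale, which understates changes of low genes. The fit was also run on simulated data with independent noise for each gene and tumor. That run required only a median estimate near each planted change. It held no effect shared by the genes of a tumor and set no requirement on power or false calls. Tables used pandas 2.3.3 and numpy 2.4.6 in Python 3.11.15, and figures matplotlib 3.10.9.

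The Wnt genes and all lists were chosen with earlier results of these data known. Genes given in full were those with an unadjusted p under 0.05, those without overlap at a mean of at least 1 FPKM, the 2 most abundant of each role and the 4 with the largest SD, with Wnt6 added after its values were seen. The alternatives were 18 other settings of scaling, filter, pseudocount, moderation, weights, covariate, block and left-out tumors, and reading the counts at an unadjusted p and without overlap over them was chosen after seeing the data.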

Additional observations from a re-analysis of the deposited data

How the results depend on the processing

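No Wnt gene was called in any of the 18 other settings, where the lowest adjusted p was 0.0698 (Wnt3, without tumor 2 of both genotypes). The count over all genes was 9, and became 5 with a pseudocount of 0.1, 16 with a weight per tumor, 20 without tumor 2 of both genotypes, and 3 to 11 when a single tumor was left out (3 without SS18-SSX2 tumor 3). The median log2 fold change of the tested Wnt genes was 0.20 and became 0.54 without tumor 2 of both genotypes and 0.16 to 0.48 with a single tumor left out, highest without SS18-SSX1 tumor 2. Of the 23 genes given in full by rule, which leave out the later added Wnt6, 16 kept their direction in every setting that tested them. With a weight per tumor the log2 fold change turned to -0.093 for Porcn, -0.31 for Rspo1, -0.23 for Sfrp2 and -0.16 for Frzb. With a single tumor left out, the log2 fold change ran from -0.14 to 0.38 for Wnt16, -0.18 to 0.28 for Porcn, -0.15 to 0.60 for Lrp5, -0.087 to 0.39 for Lrp6, -0.51 to 0.73 for Rspo1, -0.51 to 0.82 for Sfrp2 and -0.27 to 0.45 for Frzb. Wnt9a was at 0.29 without SS18-SSX2 tumor 3, Ryk between -0.32 and -0.13 with any 1 tumor left out, and Kremen1 at 0.67 without tumor 2 of both genotypes. The cause was not tested. With the tumor number as a replicate block 4 genes were called and still 0 Wnt genes. The main fit used no block because the labels name no animal, litter or day shared by tumors of the same number. The deviations of tumors with the same number correlated at 0.38, 0.31 and -0.28 over 13873 genes. Those of tumors with different numbers correlated at -0.44 to 0.23. Deviations within 3 tumors sum to 0, so these values cannot decide whether the numbers pair the tumors. Column names of both genotypes begin with A for tumor 2, B for tumor 3 and N for tumor 1, with no meaning given. Summed FPKM ran from 259460 in SS18-SSX2 tumor 1 to 442195 in SS18-SSX2 tumor 2. Rescaling to TPM moved the median of all genes to 0.08 and that of the tested Wnt genes to 0.37. With the mean log2 value of the muscle fibre genes as a covariate these medians were 0.02 and 0.40. Depth leaves Wnt3a, Wnt7a, Wnt8b and Wnt9b with few reads.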
